A study of Mus musculus with 30 samples.

Results

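The 8 tumors grown from the MCA-969 line were compared with the 4 tumors grown from the MCA-972 line, which together make 12 of the 30 tumors of the series. Tumors were chosen by their titles alone, and no measured value entered the choice. Each line is 1 primary cell line from 1 fibrosarcoma raised with the carcinogen 3-methylcholanthrene (MCA). All 12 tumors carry the strain label Ncr1Cre R26DTA on C57BL/6, in which Cre made in Ncr1-expressing cells, mostly natural killer (NK) cells, switches on diphtheria toxin A. Lines were injected into C57BL/6 mice, the tumors were depleted of CD45+ hematopoietic cells, and the CD45- fraction was sequenced as bulk RNA. The titles give 4 MCA-969 tumors the letter W (W-1D, W-2D, W-2G and W-R) and 4 the letter a (a-1D, a-2D, a-1G and a-R), against 3 MCA-972 tumors with the letter a (a-1, a-1G and a-R) and 1 with none (2G). The labels do not say what the letters mean or which host each tumor grew in. The NK sensitivity label reads Yes for all 4 MCA-972 tumors, No for 6 MCA-969 tumors and Yes for W-1D and W-2D. Library numbers place W-1D and W-2D in another numbered series than the other 10 tumors, so the comparison was repeated on 6 against 4 tumors without them, here called the shared library series.

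Fibrosarcomas are malignant tumors of mesenchymal cells, which normally make collagen and other fibrous matrix and lack the keratins and cell junctions of epithelia. Fibroblasts also keep the transcription factors that marked their place along the body axis and limbs in the embryo, chief among them the Hox proteins. MCA is a ligand of the aryl hydrocarbon receptor and a mutagen, so that each tumor line starts from its own set of mutations.

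The deposited read counts summed to between 32514125 and 39971426 per MCA-969 tumor and between 37623787 and 40088940 per MCA-972 tumor, so depth did not separate the lines. Levels are given as counts per 1000000 (CPM), which compare a gene between tumors and not one gene with another. Mitochondrial transcripts made up 1.31 to 1.68% and 1.16 to 1.63% of the counts. Over all genes tested, log2 CPM of 2 tumors correlated at 0.960 to 0.991 within MCA-969, at 0.987 to 0.992 within MCA-972 and at 0.900 to 0.943 between the lines. Tumor W-2D stood apart from its own line, with a median correlation of 0.969 to the other 7 tumors against 0.981 to 0.987 for each of the others. The tumors of a line are separate tumors of the same cells, so every p-value below rests on the spread between tumors within lines. It does not measure the spread between lines in general. Unless another fit is named, the spread within lines was estimated from all 30 tumors of the series, those of the other lines included.

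Of 16862 genes tested, 1744 were called higher in MCA-969 and 1729 lower, 10.3% in each direction. The count of called genes in each gene list below is to be read beside these shares. A gene was called when its edgeR quasi-likelihood p-value, adjusted by Benjamini-Hochberg over all genes tested, was under 0.05 and its log2 fold change at least 1 in size. Of those, 677 higher and 678 lower genes differed by a log2 fold change of at least 2, and 192 and 146 by at least 4. At most 3 counts were found in every MCA-972 tumor for 163 of the higher genes, and in every MCA-969 tumor for 87 of the lower genes. In the shared library series, 1600 of 15878 genes tested were called higher (10.1%) and 1540 lower (9.70%). Both fits called 2953 genes, none with opposite signs. Fold changes are MCA-969 over MCA-972, given as log2 with an approximate standard error. That error is the size of the log2 fold change divided by the square root of its F statistic.

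**Figure D1:**
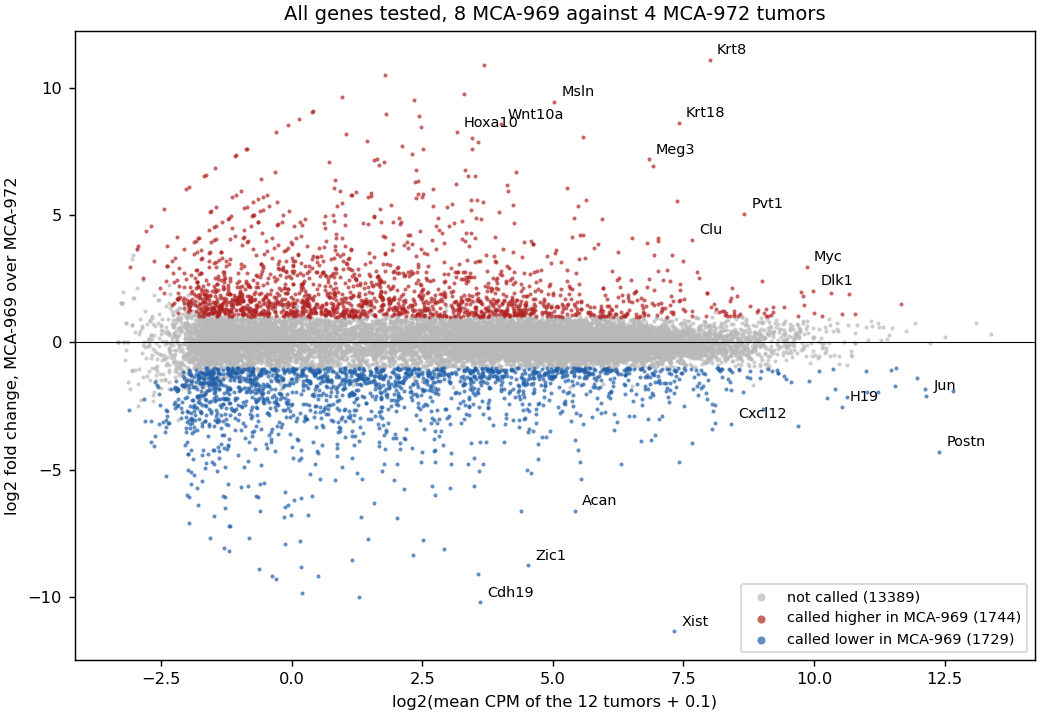
Each point is 1 of the 16862 genes tested, with its mean level over the 12 tumors as log2(CPM + 0.1) across and the log2 fold change of MCA-969 over MCA-972 upward. Red points are the 1744 genes called higher and blue points the 1729 called lower. The keratins Krt8 and Krt18 lie far above 0 at high levels, and Postn, the matrix protein periostin, lies far below it at one of the highest levels of all.

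Keratins were among the genes with the largest differences in favour of MCA-969. Krt8, which encodes keratin 8 of simple epithelia (chr15:101996698-102004482), ranged from 209 to 625 CPM (median 371) in MCA-969. In MCA-972 it stood at 0.109, 0.196, 0.0521 and 0.334 CPM in a-1, a-1G, 2G and a-R, the order used throughout. Every MCA-969 tumor was far above every MCA-972 tumor, log2 fold change 11.10 ± 0.81, edgeR adjusted p = 4.65e-12. Krt18, its usual filament partner (chr15:102028180-102032027), ranged from 135 to 557 CPM (median 226) against 0.682, 0.807, 0.443 and 0.612 CPM, log2 fold change 8.64 ± 0.42. Within MCA-969, W-2D was the highest for both keratins and W-1D the lowest, and the shared library series gave 11.06 and 8.45.

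Other genes with the largest changes upward came from several families. Msln, the surface glycoprotein mesothelin of mesothelial cells, ranged from 21.7 to 88.7 CPM (median 44.5) against 0.0546, 0.0734, 0.0782 and 0.0557 CPM, log2 fold change 9.46 ± 0.74. Lgals7, galectin-7 of stratified epithelia, ranged from 26.8 to 129 CPM (median 70.1) against 0.0819, 0.465, 0.182 and 0.306 CPM, log2 fold change 8.06 ± 0.62. Wnt10a, a secreted Wnt ligand, ranged from 11.2 to 37.1 CPM (median 22.2) against 0.109, 0.0245, 0.0521 and 0.0557 CPM, log2 fold change 8.57 ± 0.47. In all of these the lines did not overlap, which the rule for the largest changes and highest levels requires of every gene it picks. The share of all genes tested without overlap is not reported here. Slc5a7, the choline transporter of cholinergic neurons, ranged from 4.81 to 30.9 CPM (median 19.4) in MCA-969 and had 1 count in all 4 MCA-972 libraries together. Glt1d1, a putative glycosyltransferase, ranged from 11.4 to 16.9 CPM (median 14.8) and had no more than 1 count in any MCA-972 library. Both were called, and no fold is given for them. For the genes with a few more counts in the lower line, such as Msln with at most 3 in any MCA-972 library, the fitted fold depends on the small prior count of the fit and is no bound. Camkv, a kinase-like protein of synaptic vesicles, and Dynap, a membrane protein that binds dynactin, were called higher as well, at mean levels of 16.2 against 0.0815 CPM and 17.6 against 0.0704 CPM.

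In the other direction the largest difference was Xist, the noncoding RNA that silences one X chromosome in female cells. It stood at 464, 531, 513 and 416 CPM in MCA-972 and at no more than 0.603 CPM in any MCA-969 tumor, log2 fold change -11.35 ± 0.28, edgeR adjusted p = 9.75e-23. Y-linked Ddx3y, Eif2s3y, Kdm5d and Uty were all called higher in MCA-969, with means of 66.3 against 1.61 CPM for Ddx3y and 25.8 against 0.343 CPM for Uty. The tumors of the lines did not overlap for any of these 5 genes.

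Cdh19, a cadherin best known from Schwann cell precursors, stood at 38.1, 29, 38.2 and 39.3 CPM in MCA-972 and at 3 counts or fewer in every MCA-969 library, so that its fitted fold is no bound either, log2 fold change -10.22 ± 0.44. Zic1, a zinc finger transcription factor of the dorsal neural tube and trunk mesoderm (chr9:91358058-91365810), ranged from 0.0304 to 0.414 CPM (median 0.144) against 68.5, 70.4, 69.1 and 65.4 CPM, log2 fold change -8.76 ± 0.40. St8sia2, which builds polysialic acid on neural cell adhesion molecules, was called lower at 0.0761 against 22.3 CPM. Acan, the large cartilage proteoglycan aggrecan, ranged from 0.217 to 3.25 CPM (median 1.08) against 148, 86.2, 160.4 and 109 CPM, log2 fold change -6.62 ± 0.64. None of these 4 genes had overlapping tumors, as the rule that chose the largest changes requires. The summed level of 9 Schwann cell markers leaned the other way from Cdh19. It was 16.1 to 26.9 CPM in MCA-969 and 13.6 to 16.5 CPM in MCA-972, with overlap. Of the 6 markers tested, 2 were called higher and 0 lower. Their median log2 fold change was 0.414 with all tumors and -0.129 in the shared library series. Rbm44, Stk32b, Cyp2j9, Thrb, Tcfl5, Ptprd and Fendrr made up the rest of the largest decreases, with log2 fold changes between -9.09 for Rbm44, an RNA-binding protein of germ cells, and -5.76 for Fendrr, a noncoding RNA transcribed next to Foxf1.

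**Figure D2:**
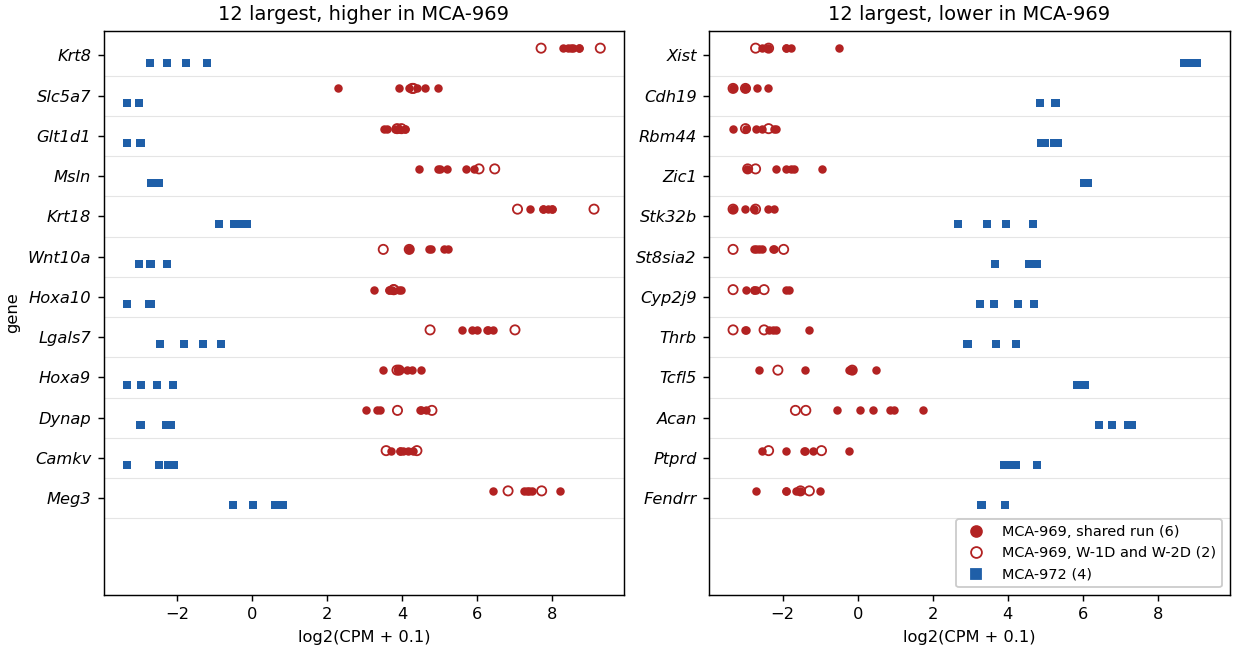
Levels by tumor, as log2(CPM + 0.1), of the 12 genes with the largest fold change in each direction, higher in MCA-969 on the left and lower on the right. Filled red circles are the 6 MCA-969 tumors of the shared library series, open red circles W-1D and W-2D, and blue squares the 4 MCA-972 tumors. The tumors of the lines do not overlap for any of the 24 genes, as the rule that chose them requires, and the open circles lie among or beside the filled ones.

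A pair of transcription factors with many known target genes differed at high levels and in opposite directions. Myc (chr15:61985391-61990374), a basic helix-loop-helix factor that drives growth and binds the E-box, ranged from 735 to 2799 CPM (median 907) in MCA-969 against 133, 133, 102 and 299 CPM in MCA-972, log2 fold change 2.98 ± 0.42, edgeR adjusted p = 7.79e-07. The tumor W-R was its highest. Jun (chr4:95049034-95052222), a subunit of the AP-1 factor, ranged from 1699.9 to 2544 CPM (median 2201) in MCA-969 against 8322, 7536, 7724 and 13704 CPM, log2 fold change -2.10 ± 0.14, edgeR adjusted p = 9.67e-13. For both genes every tumor of one line lay above every tumor of the other.

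Promoters of 4 genes that differed strongly are printed because they hold the letters these factors are known for, TGANTCA for AP-1 and CACGTG for the E-box. Each is the stretch of 250 bases before the RefSeq start site, 5′ to 3′ on the gene's own strand in GRCm38.p6, with the matched letters in capitals. Plet1 (chr9:50494275-50494524, plus strand) and Il11 (chr7:4778142-4778391, minus strand, 1 of its 2 RefSeq starts) were higher in MCA-969 and hold 1 TGANTCA each. Dlx2 (chr2:71546755-71547004, minus strand), higher, and Zic1 (chr9:91365769-91366018, minus strand), lower, hold CACGTG.
Plet1: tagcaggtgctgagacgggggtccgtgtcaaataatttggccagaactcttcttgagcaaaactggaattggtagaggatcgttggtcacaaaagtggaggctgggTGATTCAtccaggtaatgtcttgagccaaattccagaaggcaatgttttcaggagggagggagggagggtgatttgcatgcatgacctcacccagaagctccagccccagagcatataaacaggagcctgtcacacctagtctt
Il11: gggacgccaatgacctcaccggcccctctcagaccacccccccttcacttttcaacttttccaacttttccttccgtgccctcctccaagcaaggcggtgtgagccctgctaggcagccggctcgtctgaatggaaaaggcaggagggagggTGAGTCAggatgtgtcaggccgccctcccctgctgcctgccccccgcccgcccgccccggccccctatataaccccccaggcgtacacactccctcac
Dlx2: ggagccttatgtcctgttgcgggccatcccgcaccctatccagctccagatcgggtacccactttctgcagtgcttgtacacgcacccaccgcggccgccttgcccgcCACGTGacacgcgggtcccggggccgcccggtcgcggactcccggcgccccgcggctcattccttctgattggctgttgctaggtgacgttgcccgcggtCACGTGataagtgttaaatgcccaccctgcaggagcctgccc
Zic1: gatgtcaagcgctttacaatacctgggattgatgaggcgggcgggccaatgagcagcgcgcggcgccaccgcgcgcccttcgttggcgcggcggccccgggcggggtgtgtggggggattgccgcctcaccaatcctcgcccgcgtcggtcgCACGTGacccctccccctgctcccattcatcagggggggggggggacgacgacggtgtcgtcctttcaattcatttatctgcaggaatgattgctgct
The first base of the match lies 144 bases before the start of Plet1, 98 before that of Il11, 142 and 42 before that of Dlx2, and 98 before that of Zic1. Both patterns read the same on either strand, except for the middle base of TGANTCA, and the end of one can overlap the start of the other. Among promoters of the same length, TGANTCA was found in 7.82% of all 27025 genes with a RefSeq promoter, in 5.95% of the 11695 tested ones, in 7.88% of 1142 called higher and in 7.76% of 1121 called lower. CACGTG was found in 6.86% of all, 9.55% of those tested, 10.8% of those called higher and 6.69% of those called lower. A match is a description of letters and not a site of binding.

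Most of the listed genes of epithelial junctions and their regulators were higher in MCA-969. The gene lists were drawn up with earlier results of these data known, and none was tested as a set. Of 26 tested, 19 were called higher and 3 lower, with a median log2 fold change of 2.73 against 0.03 for all genes tested. The shared library series called 18 of 23 higher and 3 lower. Of the 10 simple keratins and mesothelial genes tested, 6 were called higher and 3 lower, with a median of 3.84. Plet1, a surface protein of epithelial progenitors, ranged from 7.75 to 35.1 CPM (median 13.2) against 0.355, 0.318, 0.313 and 0.306 CPM, log2 fold change 5.60 ± 0.38. Krt20 and Krt19, further keratins of simple epithelia, rose from 0.205 CPM in MCA-972 to 5.49 CPM in MCA-969 and 0.141 CPM in MCA-972 to 1.11 CPM in MCA-969, and Krt7, another, fell from 0.461 CPM in MCA-972 to 0.143 CPM in MCA-969.

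Among junction proteins, Dsp, the desmosome's link to keratin filaments, ranged from 0.743 to 10.1 CPM (median 6.06) against 0.164, 0.0734, 0.182 and 0.0835 CPM, log2 fold change 5.40 ± 0.66. Ocln, the tight junction protein occludin, ranged from 1.07 to 4.86 CPM (median 2.75) against 0.0273, 0.0489, 0.0521 and 0.0278 CPM, log2 fold change 5.96 ± 0.57. Cdh3, P-cadherin, ranged from 8.33 to 26.2 CPM (median 15.1) against 0.983, 0.807, 1.17 and 0.835 CPM, log2 fold change 4.11 ± 0.39. The tumors of the lines did not overlap for these 3. Among the genes at higher levels, Ezr, which ties membrane to actin in microvilli, stood at 189 against 11.1 CPM, and Itga6, the laminin-binding integrin subunit of hemidesmosomes, at 188 against 12 CPM, log2 fold change 4.10 ± 0.22 and log2 fold change 3.97 ± 0.17. Epcam, an epithelial adhesion molecule, stood at 4.84 against 0.426 CPM, log2 fold change 3.49 ± 0.45. Cdh1, E-cadherin itself, went the other way at low levels, 0.318 against 0.89 CPM, log2 fold change -1.47 ± 0.57, as did Pkp1, a desmosomal plaque protein, log2 fold change -3.93 ± 0.35. The call of Cdh1 was lost without W-R, W-2D, the MCA-969 tumor a-R, 2G or the MCA-972 tumor a-1G (edgeR adjusted p between 0.0506 and 0.159), and that of Pkp1 was not.

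Regulators of the mesenchymal state were called about as often as all genes. Of 12 regulators and adhesion genes of the epithelial to mesenchymal transition, 1 was called higher (Twist2, log2 fold change 1.65 ± 0.19) and 1 lower (Snai2, log2 fold change -1.28 ± 0.14), 8.33% in each direction beside 10.3% over all genes tested, with a median of 0.025. Vim, the filament protein vimentin, stood at 4756 against 4835 CPM, log2 fold change -0.02 ± 0.11, and Cdh2, N-cadherin, at 81.3 against 91.5 CPM, log2 fold change -0.17 ± 0.15. Neither was called.

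Markers of other cell types moved with these genes in part. The summed level of 18 keratinocyte markers was 11.1 to 24.9 CPM in MCA-969 and 6.03 to 7.49 CPM in MCA-972, without overlap. Of the 8 keratinocyte markers tested, 5 were called higher (Ivl, Sbsn, Sfn, Krt16 and Krt10) and 1 lower (Trp63, the master regulator of stratified epithelia, log2 fold change -2.86 ± 0.52). Krt16 lost its call without 2G or the MCA-972 tumor a-1G (edgeR adjusted p = 0.067 and 0.0677), and Krt10 without a-1 (log2 fold change 0.89). The defining basal keratins Krt5 and Krt14 did not pass the filter on low counts, and stood at 2.80 and 3.01 CPM in a-1D but at no more than 0.0546 and 0.167 CPM in the other 11 tumors. Of the mesothelial genes, Muc16, Upk3b and Wt1 were at or near 0 in all 12 tumors, with no more than 5 counts in any library. In bulk samples fewer cells of a type and less RNA per cell cannot be told apart.

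Hox genes formed the next block of increases. These transcription factors sit in 4 clusters in the order in which they act along the body axis. Of 30 tested, 20 were called higher in MCA-969 and 2 lower, with a median log2 fold change of 2.40. In the shared library series 19 of 29 were higher and 2 lower. The difference was largest in the Hoxa and Hoxb clusters. Hoxa9 ranged from 11.2 to 22.8 CPM (median 15.1) against 0, 0.0734, 0.13 and 0.0278 CPM, log2 fold change 8.02 ± 0.43. Hoxa10 ranged from 9.37 to 15.6 CPM (median 13.4) against 0, 0.0489, 0.0521 and 0.0557 CPM, log2 fold change 8.26 ± 0.37. Hoxa11 had no count in any MCA-972 library and ranged from 0.55 to 2.92 CPM (median 1.32) in MCA-969, at least 18.9-fold higher when set against a floor of 3 counts per library. Hoxb6, Hoxb7, Hoxb8 and Hoxb9 were called higher with log2 fold changes between 5.73 and 6.53.

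At the front end of the Hoxb cluster, whose genes act nearer the head, fold changes were smaller. Hoxb2, Hoxb3 and Hoxb4 were called higher from 1.61 CPM in MCA-972 to 8.46 CPM in MCA-969, 1.54 CPM in MCA-972 to 14.4 CPM in MCA-969 and 1.94 CPM in MCA-972 to 10.3 CPM in MCA-969. The Hoxc cluster ran both ways. Hoxc8 ranged from 4.02 to 11.8 CPM (median 8.83) against 49.4, 50.3, 55.2 and 49.3 CPM, log2 fold change -2.64 ± 0.19, and Hoxc9 was called lower too, log2 fold change -1.43 ± 0.28. Hoxc10, the next gene along, was called higher, 10.2 against 0.463 CPM, log2 fold change 4.43 ± 0.56, and Hoxc6 stood at 39.9 against 40.9 CPM and was not called. Hoxd8 stood at 20.8 against 18.6 CPM and was not called. Mean levels of Hoxa5 to Hoxa11 and of Hoxb5 to Hoxb9 in MCA-972 lay between 0 and 0.359 CPM. W-2D was the lowest MCA-969 tumor for Hoxb9 and Hoxc10, at 1.7 CPM and 1.08 CPM.

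**Figure D3:**
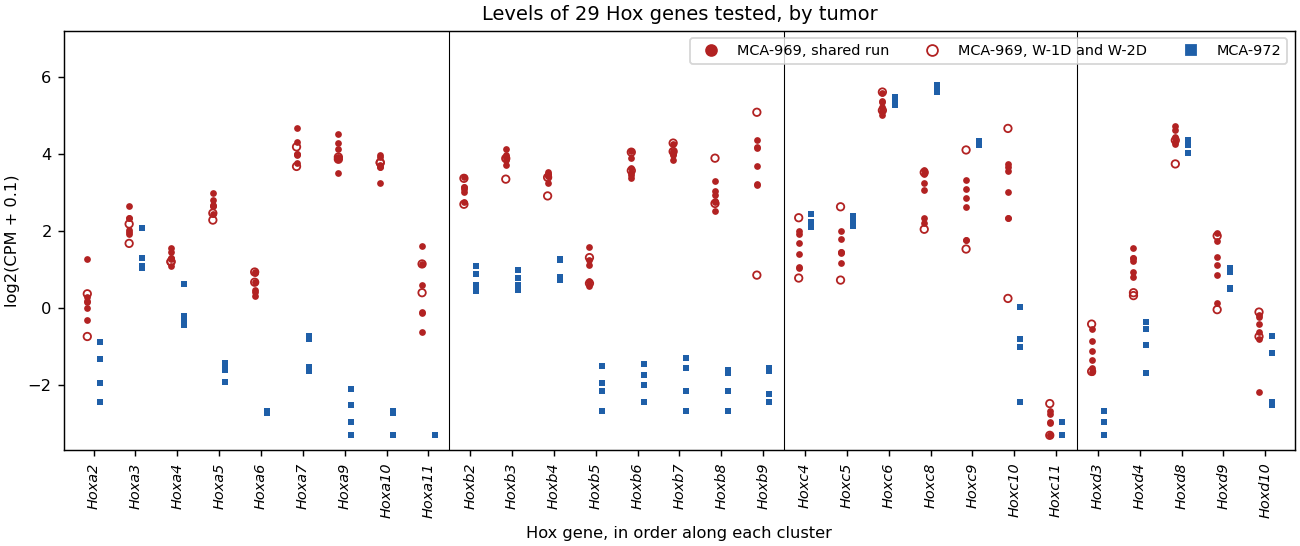
Levels of 29 of the Hox genes tested, as log2(CPM + 0.1), in the order of the genes along each cluster, with vertical lines between the clusters. Red circles are MCA-969 tumors (open for W-1D and W-2D) and blue squares MCA-972 tumors. From Hoxa5 to Hoxa11 and from Hoxb5 to Hoxb9 the squares lie far below the circles, and at Hoxc8 and Hoxc9 above them.

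Other positional transcription factors split. Of 57 tested, 13 were called higher and 19 lower, with a median of -0.51. Pitx1, which specifies the hindlimb, had no count in any MCA-972 library and ranged from 0.34 to 9.59 CPM (median 5.08) in MCA-969, at least 63.1-fold higher against the floor. Dlx2, a homeobox factor of the facial skeleton and forebrain, ranged from 2.48 to 13.9 CPM (median 7.81) and had no more than 1 count in any MCA-972 library. Lhx9, a LIM homeobox factor of limb and gonad, was called higher, 7.63 against 0.145 CPM, log2 fold change 5.69 ± 0.47. On the lower side stood Zic1 and Zic4, which are neighbours on chromosome 9, and Zic4 had no more than 2 counts in any MCA-969 library against 6.31, 6.8, 6.49 and 5.65 CPM. Osr1, an early mesoderm factor, was called lower at 5.52 against 62.1 CPM, log2 fold change -3.49 ± 0.28, while its relative Osr2 was called higher at 98.9 against 29 CPM, log2 fold change 1.77 ± 0.44. Foxf1, a factor of visceral mesoderm, and Ebf1, of fat and lymphoid precursors, were called lower, log2 fold change -2.98 ± 0.17 and log2 fold change -3.12 ± 0.34.

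Genes of smooth muscle and of the myofibroblast, the contractile fibroblast of wounds, were lower in MCA-969. Of 15 tested, 9 were called lower and none higher, with a median log2 fold change of -2.04, and the shared library series gave the same counts. Cnn1, the thin-filament protein calponin, ranged from 1.18 to 4.85 CPM (median 3.27) against 153, 92.8, 173 and 113 CPM, log2 fold change -5.39 ± 0.31, edgeR adjusted p = 4.42e-14. Acta2, smooth muscle actin, ranged from 32.9 to 182 CPM (median 99.5) against 714, 422, 782 and 493 CPM, log2 fold change -2.46 ± 0.37. Neither pair of ranges overlapped, and W-2D was the lowest tumor for Acta2. Actg2, Myh11, Myl9, Tagln, Smtn, Lmod1 and Pdlim3 were the other genes called lower, with log2 fold changes between -4.77 for the enteric actin Actg2 and -1.37 for smoothelin (Smtn). Cald1 and Tpm1, which many cells use, and Synpo2 were not called, at -0.07, -0.22 and 0.20.

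Collagens and the enzymes that cross-link them were lower too. Of 33 tested, 19 were called lower and 3 higher, with a median of -1.34, and 18 and 3 of 33 in the shared library series. Col1a1, the main chain of type I collagen, ranged from 778 to 3569.6 CPM (median 2691) against 7548, 5483, 5783 and 8447 CPM, log2 fold change -1.39 ± 0.26. Col3a1, of type III, ranged from 1484 to 3956 CPM (median 3759) against 13237, 10370.0, 11680.0 and 15393 CPM, log2 fold change -1.90 ± 0.16. Col5a1, which starts fibrils, ranged from 212 to 745 CPM (median 579) against 2548, 2245, 2603 and 2754 CPM, log2 fold change -2.19 ± 0.19. Fibrils of these chains gain strength only once they are cross-linked. Lox, the lysyl oxidase that cross-links them, ranged from 25.6 to 369.8 CPM (median 174) against 1316, 905, 996 and 1508 CPM, log2 fold change -2.62 ± 0.40. The lines did not overlap in these 4, and W-2D was the lowest MCA-969 tumor in each. All 3 related enzymes Loxl1, Loxl2 and Loxl3 were called lower, while Loxl4 stood at 0.02. Col13a1, Col25a1 and Col28a1, minor collagens found at membranes and nerves, were the 3 called higher.

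Postn, the matrix protein periostin, was the clearest of the lower matrix genes at high level. It ranged from 179 to 963 CPM (median 831) in MCA-969 and stood at 13551, 10906, 12441 and 22012 CPM in MCA-972, log2 fold change -4.30 ± 0.35, edgeR adjusted p = 4.79e-11. Fstl1, a secreted glycoprotein, ranged from 362 to 999 CPM (median 764) against 3315, 3108, 3057 and 3618 CPM, log2 fold change -2.14 ± 0.16. Tnc, tenascin-C of healing tissue, was called lower, 1709 against 5562 CPM, log2 fold change -1.70 ± 0.30, and so was Dcn, the small proteoglycan decorin, 592 against 1694 CPM, log2 fold change -1.52 ± 0.20. Neither Postn nor Fstl1 overlapped between the lines. Among collagen receptors, Itga11 ranged from 0.186 to 19.3 CPM (median 5.99) against 93.6, 86, 103 and 171 CPM, log2 fold change -3.83 ± 0.57, while Itga10, a receptor of cartilage collagen, ranged from 50.3 to 94.5 CPM (median 64) against 4.94, 3.06, 2.76 and 3.45 CPM, log2 fold change 4.22 ± 0.34. Of 15 integrin genes 2 were called higher (13.3%) and 5 lower (33.3%).

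The summed level of 15 fibroblast and pericyte markers was 1753 to 2291 CPM in MCA-969 and 2778 to 3153 CPM in MCA-972, without overlap, and of these 4 were called higher and 4 lower. Fap, Dpt, Pdgfrb and Cd34 were the lower ones and Rgs5, S100a4, Abcc9 and Cspg4 the higher, of which Abcc9 lost its call without W-1D, a-1, 2G or the MCA-972 tumor a-1G (edgeR adjusted p between 0.0594 and 0.0862). How far this sum moves with the smooth muscle and collagen genes was not tested.

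Proteases of the ADAMTS family, several of which cut proteoglycans, differed in both directions. Adamts5, Adamts12, Adamts15 and Adamts16 were called lower with log2 fold changes between -4.88 and -2.86. Adamts4 was called higher, log2 fold change 1.01 ± 0.28, but not in the shared library series (0.80) or without W-1D, W-R, a-2D, a-1, 2G or the MCA-972 tumor a-1G (log2 fold change 0.73 to 0.99). Over the 39 matrix proteases and inhibitors tested, 9 were called lower (23.1%) and 4 higher (10.3%), beside 10.3% each way over all genes tested. Of 26 proteoglycans and hyaluronan enzymes 9 were called higher and 8 lower. Has1, a hyaluronan synthase, ranged from 45.9 to 186 CPM (median 76.9) against 1.99, 3.18, 2.11 and 5.23 CPM, log2 fold change 4.85 ± 0.43, with no overlap. In the basement membrane, 6 of 18 genes were called higher and 2 lower. The laminin chains Lama1, Lama5 and Lamc3 stood at means of 20.7 against 1.99 CPM, 30.3 against 2.99 CPM and 5.42 against 0.372 CPM and were called higher, and Lama4 of vessels and mesenchyme was called lower at 111 against 521 CPM.

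Skeletal lineages did not move as blocks. Of 18 cartilage genes 3 were called higher and 6 lower, of 18 bone genes 6 and 4, of 12 tendon genes 3 and 5, and of 19 skeletal muscle genes 4 and 5. Scx, the tendon transcription factor scleraxis, ranged from 20.1 to 48.7 CPM (median 27.5) against 0.328, 0.367, 0.13 and 0.278 CPM, log2 fold change 6.71 ± 0.39. Tnmd, the mature tendon protein tenomodulin, ranged from 0.031 to 6.09 CPM (median 0.268) against 3.14, 10.9, 11 and 9.19 CPM, log2 fold change -3.18 ± 0.76, and its tumors overlapped. Scx and Tnmd thus differed in opposite directions. The other tendon genes called higher were Kera, at 3.14 against 0.0528 CPM, and Fmod, at 11.5 against 1.53 CPM with overlapping tumors. In cartilage, Hapln1, the link protein that holds aggrecan to hyaluronan, was called higher at 14.7 against 0.13 CPM, log2 fold change 6.77 ± 0.54, opposite to Acan, and Col11a1, a cartilage collagen, was called lower at 25.9 against 322 CPM, log2 fold change -3.63 ± 0.56. In bone, Dmp1 of osteocytes and Bmp7, a bone morphogenetic protein, were called higher, log2 fold change 4.85 ± 0.60 and log2 fold change 4.76 ± 0.73. Tnfsf11, the osteoclast factor RANKL, ranged from 5.21 to 75.8 CPM (median 9.66) against 4.64, 3.08, 6.1 and 3.54 CPM, log2 fold change 2.02 ± 0.57, edgeR adjusted p = 0.00413, with overlapping tumors and its peak in W-R, and its receptor Tnfrsf11a was called lower, log2 fold change -1.49 ± 0.16. In muscle, Eya1, a coactivator of early muscle formation, 0.179 against 6.44 CPM, and Musk, the kinase of the neuromuscular junction, 0.104 against 8.44 CPM, were called lower, log2 fold change -5.15 ± 0.44 and log2 fold change -6.30 ± 0.39.

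Wnt genes leaned upward. These secreted ligands signal through Frizzled receptors, and R-spondins strengthen the signal. Of 48 ligands, receptors and antagonists tested, 16 were called higher and 7 lower, with a median of 0.61, and 17 and 6 of 47 in the shared library series. Beside Wnt10a, the ligands Wnt6, Wnt7b, Wnt9a, Wnt10b, Wnt11 and Wnt16 were called higher, with Wnt7b at 59.9 against 16 CPM and log2 fold change 1.91 ± 0.20. Notum, an enzyme that inactivates Wnts and is itself a target of the pathway, ranged from 12 to 66.1 CPM (median 20) against 2.87, 3.33, 1.98 and 4.04 CPM, log2 fold change 3.01 ± 0.54. Nkd1, another feedback inhibitor, was called higher, log2 fold change 3.07 ± 0.51, while the target Axin2 stood at 11.4 against 7.1 CPM and was not called, log2 fold change 0.68 ± 0.37. The R-spondins Rspo2 and Rspo3 were called lower, log2 fold change -3.55 ± 0.25 and log2 fold change -3.02 ± 0.42, from means of 6.33 and 2.67 CPM in MCA-972.

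In the Hedgehog and Notch pathways, 10 of 28 genes were called higher and 4 lower. The Hedgehog targets Gli1 and Hhip were called higher, log2 fold change 2.31 ± 0.43 and log2 fold change 2.37 ± 0.35, and Ptch1, a further target, stood at 0.73 and was not called. Dlk1, a secreted relative of the Notch ligands, ranged from 1124 to 1575 CPM (median 1359) against 241, 241, 313 and 535 CPM, log2 fold change 2.02 ± 0.39, without overlap. The endothelial receptor Notch4 was called lower, 10.7 against 57 CPM, log2 fold change -2.42 ± 0.49. Of 45 genes of TGF-beta and BMP signaling, 6 were called in each direction, 13.3% beside 10.3% over all genes tested. Tgfb3, a ligand, and the latent binding proteins Ltbp1 and Ltbp4 were among the lower ones, with Tgfb3 at 79.9 against 278 CPM, log2 fold change -1.80 ± 0.18.

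Among growth factor receptors, Kit, the receptor of stem cell factor, ranged from 36.9 to 143 CPM (median 79.2) against 5.41, 5.84, 6.07 and 6.93 CPM, log2 fold change 3.72 ± 0.56. Its ligand Kitl stood at 48.6 against 67.1 CPM and was not called. Areg, the EGF receptor ligand amphiregulin, ranged from 26.3 to 162 CPM (median 58) against 1.45, 1.74, 0.834 and 2.03 CPM, log2 fold change 5.60 ± 0.55. Ereg, epiregulin, ranged from 203 to 1905 CPM (median 493) against 130.2, 103, 55.3 and 245 CPM, log2 fold change 2.40 ± 0.56, with W-R highest and the lines overlapping. The receptor Egfr itself was called lower, 35.2 against 81.7 CPM, log2 fold change -1.21 ± 0.22, and Erbb2, a coreceptor, was called higher at 11.4 against 4.09 CPM. Over 27 receptor kinases 7 were called higher (25.9%) and 3 lower (11.1%), and over 51 growth factors 10 (19.6%) and 11 (21.6%).

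Insulin-like growth factor genes differed as well. Igf2, a fetal growth factor, ranged from 26.2 to 120.1 CPM (median 56.1) against 434, 883, 589 and 766 CPM, log2 fold change -3.40 ± 0.39. The binding protein Igfbp5 ranged from 1.95 to 19.4 CPM (median 7.05) against 225, 241, 247 and 169.8 CPM, log2 fold change -4.79 ± 0.64, and neither gene overlapped. Igf1r, the receptor, was called higher, 193 against 69.3 CPM, log2 fold change 1.47 ± 0.13.

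Imprinted genes, which are read from one parental copy, differed in both directions, with 7 of 34 called higher and 11 lower. On chromosome 12, the maternal noncoding RNAs Meg3, Rian and Mirg were higher together. Meg3 ranged from 85.3 to 297 CPM (median 164) against 0.601, 1.44, 1.67 and 0.919 CPM, log2 fold change 7.19 ± 0.57. Rian ranged from 138 to 211 CPM (median 182) against 0.901, 1.86, 2.16 and 0.891 CPM, log2 fold change 6.95 ± 0.60. Paternally read Dlk1 of the same domain rose with them, as given above, and Rtl1 stood at 1.44 against 0.864 CPM and was not called. On chromosome 7, H19 fell with its neighbour Igf2, ranging from 307 to 928 CPM (median 496) against 2227, 4017, 3670.3 and 3329 CPM, log2 fold change -2.53 ± 0.39. Plagl1, a zinc finger factor, and Grb10, an adaptor of insulin receptors, were called lower, log2 fold change -3.41 ± 0.31 and log2 fold change -2.68 ± 0.36.

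Of 36 cell cycle genes tested, Myc alone was called, and the median was -0.05. Mki67, a marker of cycling cells, stood at 242 against 242 CPM, log2 fold change 0.00 ± 0.12. Of 28 genes of the p53, Ink4 and Rb pathways, 7 were called higher and none lower, at a median of 0.30. These were Bbc3, Pmaip1 and Bax, which promote apoptosis, Cdkn1a, which arrests the cycle, and Aen, Tnfrsf10b and Zmat3, all known targets of p53. Bbc3 ranged from 5.7 to 9.16 CPM (median 7.55) against 1.8, 2.08, 1.62 and 1.64 CPM, log2 fold change 2.06 ± 0.20, without overlap. Mdm2, a further target, stood at 81 against 41.7 CPM, log2 fold change 0.96 ± 0.11, just below the fold needed for a call, which it passed without a-1D (1.01). Zmat3, at 1.03, fell below that fold without the MCA-969 tumor W-2D, a-2D or a-R or the MCA-972 tumor a-1G (0.946 to 0.996). Trp53 stood at 142 against 93.6 CPM and Cdkn2a, the Ink4a and Arf gene, at 504 against 459.6 CPM, and neither was called.

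Of 38 genes of glycolysis and the hypoxia response, 9 were called higher and 1 lower, with a median of 0.52. The carbonic anhydrases Car9 and Car12 were called higher, log2 fold change 3.92 ± 0.66 and log2 fold change 2.45 ± 0.28, as was the glucose transporter Slc2a3, at 61.9 against 12.5 CPM. Ldha, which makes lactate, was called higher at 1245 against 565 CPM, log2 fold change 1.14 ± 0.17, and missed the fold needed in the shared library series (0.99). Hif1a stood at 290.1 against 342 CPM and was not called. The metallothioneins Mt1 and Mt2, which bind zinc and copper, were both higher. Mt1 ranged from 176 to 491 CPM (median 295) against 73.1, 32.7, 12.2 and 62.1 CPM, log2 fold change 2.75 ± 0.41, without overlap. Of 23 targets of the aryl hydrocarbon receptor and of NRF2, 1 was called higher and 4 lower, among them Cyp1b1, which oxidizes polycyclic hydrocarbons, 1.42 against 6.66 CPM, log2 fold change -2.23 ± 0.45, and the glutathione transferase Gsta4, 7.8 against 48.7 CPM, log2 fold change -2.64 ± 0.26.

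Class I molecules present peptides to T cells and hold NK cells back through inhibitory receptors. Of 26 genes of class I and antigen presentation tested, 6 were called higher and 1 lower, with a median of 0.49 (0.31 in the shared library series). H2-K1, a classical class I heavy chain, ranged from 250.2 to 367 CPM (median 339) against 51.5, 117, 81.5 and 87.7 CPM, log2 fold change 1.96 ± 0.21, edgeR adjusted p = 1.04e-08. H2-D1, the other, ranged from 328 to 535 CPM (median 428) against 94.6, 180.3, 136 and 155 CPM, log2 fold change 1.61 ± 0.17. Neither overlapped. Nlrc5, the transactivator of class I genes, was called higher, 28.2 against 10.3 CPM, log2 fold change 1.46 ± 0.23, and B2m, the light chain, stood at 872 against 557 CPM, log2 fold change 0.65 ± 0.13, and was not called. The class I heavy chains are close copies of one another, and how reads shared between them were counted is not stated.

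Ligands of NK cell receptors went both ways, with 5 of 17 called higher and 4 lower. H2-T23, which makes Qa-1, the ligand of the inhibitory receptor CD94/NKG2A, was called higher, 23.4 against 4.34 CPM, log2 fold change 2.43 ± 0.25. Nectin2, seen by the activating receptor DNAM-1 and by TIGIT, ranged from 17.7 to 27.1 CPM (median 19.5) against 1.39, 2.84, 2.01 and 2.92 CPM, log2 fold change 3.19 ± 0.17. Icam1, the ligand of the integrin LFA-1, ranged from 20.1 to 56 CPM (median 32.1) against 4.4, 5.99, 5.34 and 4.87 CPM, log2 fold change 2.75 ± 0.33. Neither of the last 2 overlapped. Among ligands of the activating receptor NKG2D, Raet1d was called lower, 0.886 against 2.05 CPM, and Raet1e and Ulbp1 stood at 2.06 against 1.17 CPM and 24.4 against 41.1 CPM and were not called. Pdgfd, a growth factor that also binds the human receptor NKp44, was called lower, 4.21 against 29.4 CPM, log2 fold change -2.80 ± 0.35.

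Enzymes of adenosine and prostaglandin metabolism and other immune regulators split as well, with 8 of 30 called higher and 4 lower. Nt5e (CD73), which makes adenosine from AMP, ranged from 10.6 to 40.8 CPM (median 17.9) against 386, 259, 289 and 299 CPM, log2 fold change -3.82 ± 0.27, edgeR adjusted p = 3.35e-12, without overlap. Entpd1 (CD39), the step before it, was called higher, 54.1 against 20.2 CPM, log2 fold change 1.42 ± 0.37. Arg1, arginase, and Ptgs1, cyclooxygenase-1, were called higher at 14.4 against 0.896 CPM and 203 against 28.1 CPM, log2 fold change 3.99 ± 0.42 and log2 fold change 2.85 ± 0.25. Cd274 (PD-L1) stood at 3.74 against 2.01 CPM and was not called, except without W-2D or W-2G (log2 fold change 1.04 and 1.01) or with the letter a tumors alone (1.04), and Vsir, the checkpoint protein VISTA, was called higher, 18.5 against 7.69 CPM, log2 fold change 1.27 ± 0.24.

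Of 44 chemokines and cytokines, 9 were called higher and 7 lower. Il11, a cytokine of stroma, ranged from 23 to 424 CPM (median 73.7) against 6.36, 8, 5.79 and 11 CPM, log2 fold change 4.10 ± 0.62, with W-R the highest and no overlap. Csf3, the neutrophil growth factor G-CSF, was called higher, 26.9 against 2.27 CPM, log2 fold change 3.57 ± 0.75, with its highest value also in W-R. Cxcl12, the ligand of CXCR4, ranged from 53.2 to 131 CPM (median 85.9) against 782, 603, 955 and 1012 CPM, log2 fold change -3.20 ± 0.40, without overlap. Of 45 interferon-stimulated genes 2 were called higher (4.44%) and 6 lower (13.3%), at a median of -0.53. Ifitm1, an antiviral membrane protein, was called higher, 4.71 against 1.01 CPM, log2 fold change 2.22 ± 0.34, and Oas1a, Oas1b and Oasl1, sensors of double-stranded RNA or their relatives, were called lower at -1.73, -1.95 and -1.52.

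Leukocyte transcripts remained in both lines after the depletion of CD45+ cells. The 47 leukocyte markers summed to 252 to 374 CPM in MCA-969 and to 326 to 392 CPM in MCA-972, with overlap. Of 40 tested, 3 were called higher (7.5%) and 6 lower (15%), beside 10.3% each way over all genes tested. Ptprc, which encodes CD45 itself, ranged from 0.402 to 2.54 CPM (median 0.58) against 1.75, 5.28, 8.42 and 2 CPM, log2 fold change -2.02 ± 0.79, edgeR adjusted p = 0.0326, with overlap. Ccl3, Ccl4, Il1b and Osm, cytokines that leukocytes make, were called lower beside it, with means of at most 3.79 CPM in either line. Without 2G, the calls of Ptprc (-1.47), Il1b (-1.46) and Osm (-1.70) were lost, and the call of Ptprc was also lost without W-2G, W-R, W-2D, a-2D or either tumor a-1G (edgeR adjusted p between 0.0509 and 0.0701). Il1b was not called in the shared library series (-1.84, edgeR adjusted p = 0.0683). With the library series as a covariate, neither Il1b (-1.84) nor Ptprc (-1.89) was called, and limma-voom did not call Ptprc (-2.07). The part of the remaining leukocytes in the levels of Ccl3, Ccl4, Il1b and Osm was not tested. Endothelial markers summed to 124 to 419 CPM against 130 to 258 CPM, and 2 of 17 were called higher with all tumors (Ptprb and Plvap) but 8 of 17, with 1 lower, in the shared library series. Ptprb and Plvap lost their calls without a-1, 2G or the MCA-972 tumor a-1G (edgeR adjusted p between 0.0549 and 0.0867).

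Among cadherins and guidance receptors of the nervous system, more genes were called lower in MCA-969 than higher. Of 27 non-clustered protocadherins and other cadherins, 12 were called lower and 1 higher, with a median of -0.84. Fat4, a giant cadherin of planar polarity, ranged from 2.94 to 32.4 CPM (median 14.5) against 141, 145, 166 and 273 CPM, log2 fold change -3.44 ± 0.33. Pcdh10, Pcdh17 and Cdh10 were called lower as well, log2 fold change -3.42 ± 0.43, log2 fold change -1.36 ± 0.37 and log2 fold change -2.86 ± 0.53, and Cdh13, a cadherin without a membrane-spanning part, was the 1 called higher, 69.7 against 7.05 CPM, log2 fold change 3.31 ± 0.31. Of 66 axon guidance genes 10 were called higher and 19 lower, and of 32 neural adhesion genes 6 and 10. The Eph receptors Epha4 and Ephb2 were called lower, log2 fold change -4.03 ± 0.52 and log2 fold change -2.77 ± 0.29. Ntm, an immunoglobulin-domain adhesion molecule of neurons, was called lower from 0.534 CPM in MCA-972 to 0.0595 CPM in MCA-969.

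The clustered protocadherins, cell identity proteins encoded side by side on chromosome 18, gave 7 higher and 17 lower of 41 tested. Pcdhgb2 ranged from 0.588 to 1.75 CPM (median 0.942) against 31.3, 18.3, 17 and 22.7 CPM, log2 fold change -4.36 ± 0.19, and Pcdhga5 ranged from 0.0619 to 1.5 CPM (median 0.376) against 10.5, 7.31, 7.79 and 7.68 CPM, log2 fold change -4.08 ± 0.35. Pcdhga11 and Pcdhgb4, from further along the same array, went the other way, 14.5 against 2.42 CPM and 12.9 against 2.29 CPM, log2 fold change 2.58 ± 0.27 and log2 fold change 2.49 ± 0.35. The lines did not overlap for any of these 4 genes. The gamma genes share their last exons, so the counting can split reads between them. Between Pcdhb13 and Pcdhga7, 15 of 22 genes tested were called lower and none higher.

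Called genes also gathered along other chromosome stretches, which were sought after the fold changes were known and are described without a test. Runs of 15 neighbouring tested genes with a median log2 fold change of at least 2 in size were joined. This gave 5 stretches, the Hoxa and Hoxb clusters, the protocadherins, a stretch of the X chromosome from Hdx to Xkrx with 9 of 19 genes called lower and 2 higher, and a stretch of chromosome 4 (94089576 to 101466995 in GRCm38, 7.38 Mb) that holds Jun. The last held the most called genes. Of 43 genes tested there, 28 were called lower and 1 higher, with a median of -2.54. Among its genes, Mysm1, a histone deubiquitinase, Usp1, a deubiquitinase of DNA repair, and Alg6, a glycosyltransferase, were called lower at -3.01, -3.15 and -2.94. Usp1 ranged from 59.96 to 94.3 CPM (median 73.6) against 835, 554, 486 and 828 CPM, log2 fold change -3.15 ± 0.14, edgeR adjusted p = 8.79e-17, without overlap. Tumors of the 3 other lines, MCA-943, MCA-948 and MCA-970, had mean Usp1 levels of 89.4, 154 and 83.7 CPM, far under the MCA-972 level. Not all genes called lower in the stretch showed this. Cachd1 stood at 36.9, 42.2 and 41.6 CPM in those lines, against 16.8 CPM in MCA-969 and 46.2 CPM in MCA-972. Nfia stood at 104 CPM in MCA-943, against 18.4 CPM in MCA-969 and 272 CPM in MCA-972. Within the stretch, Plaa and Ift74 on one side and Efcab7 and Itgb3bp on the other were not called, at -0.46, -0.48, -0.01 and 0.07. These genes do not bound the decreases. Hook1 and Gm12696, which lie between them, were not called either, at -0.47 and 0.49. Ror1, Cachd1 and Raver2, past Itgb3bp, were called lower at -2.54, -1.45 and -3.25.

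The neighbourhood of Myc on chromosome 15 gave the opposite picture on a smaller scale. Pvt1, a noncoding RNA that starts 0.05 Mb after Myc, ranged from 419 to 1359 CPM (median 504) against 20.5, 16.7, 16 and 18.9 CPM, log2 fold change 5.06 ± 0.33, edgeR adjusted p = 3.5e-13, without overlap. In MCA-943, MCA-948 and MCA-970, mean levels were 165, 816 and 133 CPM for Myc and 25.0, 243 and 13.7 CPM for Pvt1. High levels of the 2 genes were thus not particular to MCA-969, since MCA-948 had them as well. Fam84b, 1.13 Mb before Myc, was called higher, 3.88. Trib1, 2.34 Mb before it, and Fam49b, 2.08 Mb after it, were not called, at -0.68 (-1.03 without W-R and -1.48 with the letter a tumors alone, both called) and -0.56, and Adcy8 and Kcnq3, further on, were called lower. The copy number of either region was not measured in these data.

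**Figure D4:**
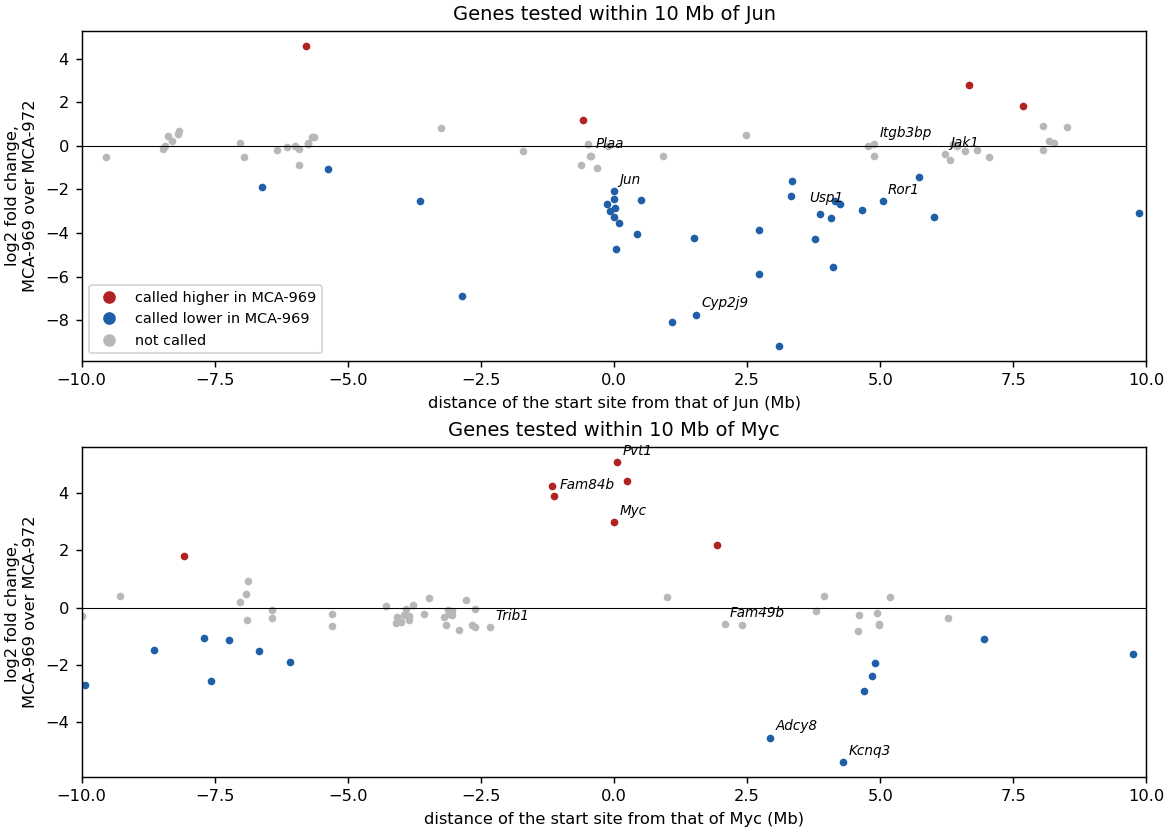
Log2 fold change of MCA-969 over MCA-972 for each gene tested within 10 Mb of Jun (top) and of Myc (bottom), by distance of its start from theirs in Mb. Red and blue points are genes called higher and lower, grey points those not called. Around Jun most points from just before it to about 6 Mb after it lie below -2, and around Myc the points raised most lie beside Fam84b, 1.13 Mb before it, and at Myc and Pvt1.

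By chromosome, chromosome 7 held the largest share of higher genes among the autosomes, with 20.4% of 1255 tested called higher and 6.06% lower and a median of 0.49. Chromosome 18 leaned the other way, with 7.66% higher and 16.9% lower of 444 tested. So did chromosome 16 with 4.65% and 16.2% of 495, chromosome 15 with 9.33% and 15.1%, and chromosome 5 with 5.53% and 13.2%. Among the autosomes, the lower shares of chromosomes 3, 1 and 4 came next, at 13.1%, 12.6% and 12.4%. On the X chromosome, 99 of 583 genes tested were called lower and 42 higher. These shares stand beside 10.3% in each direction over all genes.

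**Figure D5:**
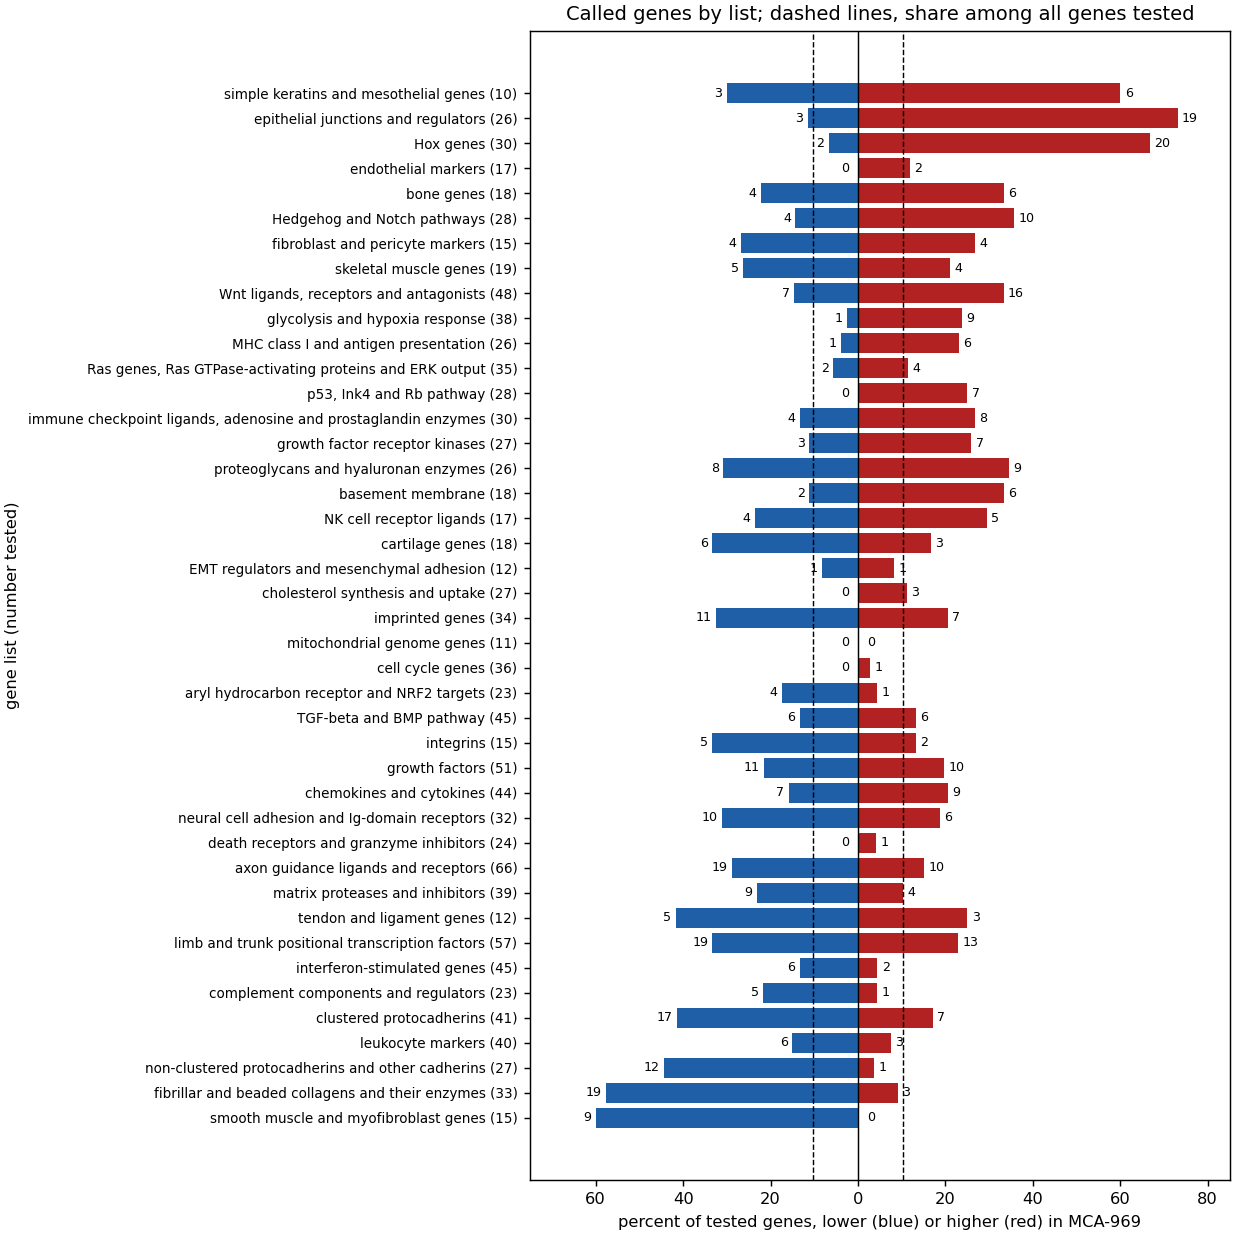
Percent of the tested genes of each gene list called higher (red, right) or lower (blue, left) in MCA-969, for the 42 lists with at least 10 genes tested, sorted by median log2 fold change with the highest on top. Numbers at the bars are the genes called, and the dashed lines mark the share among all genes tested, 10.3% in each direction. Epithelial junctions (73.1%), Hox genes (66.7%) and keratins reach furthest to the right, and smooth muscle genes and collagens (57.6%) furthest to the left.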

How the data were processed

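RNA was sequenced from 30 CD45-depleted tumors of 5 MCA lines, and the 12 tumors of MCA-969 and MCA-972 were compared. Per the study's methods and the submitters' processing notes, the authors aligned reads with STAR 2.5.3a to GRCm38 and deposited featureCounts counts for 48440 genes without normalization. The column names refer to molecular identifiers and removed duplicates, and the notes also list Picard without its role. The notes give featureCounts 1.5.2 and the methods another version. The strand setting and annotation release are not given in the sources used here, so reads of overlapping antisense genes cannot be told apart. GENCODE M21 named 48058 of the genes. No sample column was left unmapped.

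Genes were kept by filterByExpr and tested with edgeR 4.0.16 (R 4.3.3; TMM, robust quasi-likelihood, 1 factor for the line, all 30 tumors), then again on the 10 tumors of the shared library series alone. The biological coefficient of variation was 0.221 and 0.191. DESeq2 1.42.0, which the authors used, limma-voom (limma 3.58.1) and the other alternatives are given in the closing section. All tools were checked on simulated counts.

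CPM were computed from TMM library sizes, and folds against a line at 0 use a floor of 3 counts per library, which covers counting error only. The named genes are, in each direction, the 12 with the largest fold change and the 8 with the highest level among genes at 10 CPM or more without overlap between the lines, up to 4 called genes per direction in each of 46 gene lists, and genes the study names. Not all of those are printed, and values of some genes are not reported here. Further list members, the chromosome stretches and their genes were chosen after their values were seen. The members and lists were chosen with earlier results of these data known, and no list was tested as a set. Ensembl positions are in GRCm38 and promoters come from RefSeq.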

Additional observations from a re-analysis of the deposited data

Results flagged for a closer look

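For each printed gene with a mean of at least 1 CPM in a line and for each summed marker level, the gap between the highest or lowest tumor and its neighbour was divided by the range of that line on the log2(CPM + 0.1) scale. In 45 of 404 such groups the ratio passed Dixon's 95% critical value for groups of 8 (MCA-969) or 4 (MCA-972) tumors. Chance alone gives about 1 group in 20. The cause of these gaps was not tested.

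W-2D was the tumor that stood off in 28 of the 37 MCA-969 cases, and in 24 of them it was the lowest. Collagens and other matrix genes made up many of these, with ratios of 0.682 for Col1a1, 0.752 for Col3a1, 0.67 for Col5a1, 0.688 for Col11a1, 0.663 for Lox, 0.737 for Loxl1, 0.746 for Postn, 0.69 for Tnc, 0.568 for Fstl1, 0.561 for Lama4, 0.584 for Adamts12, 0.681 for Itga11 and 0.566 for Ltbp1. The remaining low values of W-2D were in Acta2 (0.608), Fat4 (0.551), Cdh10 (0.627), Jun (0.537), Kitl (0.749), Grb10 (0.606) and the positional factors Ebf1 (0.771), Pitx1 (0.676), Hoxb4 (0.53), Hoxb9 (0.555) and Hoxd8 (0.532). It was the highest MCA-969 tumor for Krt18 (0.548), Ldha (0.704), Pvt1 (0.725) and Efcab7 (0.594).

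Among the other MCA-969 tumors, W-1D stood off at the top for Fam49b (0.597), Loxl4 (0.626) and Raet1e (0.568). W-R was the lowest for Hoxa10 (0.566), Mki67 (0.592) and Slc5a7 (0.609) and the highest for Notum (0.578) and Tnfsf11 (0.601). W-2G was the lowest for Alg6 (0.538).

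In MCA-972, a-R was the highest for Itga6 (0.941), Rgs5 (0.884) and Jun (0.834). The tumor a-1G was the lowest for Cdh19 (0.903) and Rspo2 (0.841), a-1 the highest for Ebf1 (0.857) and the lowest for Tnmd (0.857), and 2G the highest for Hoxc8 (0.836).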

How the results depend on the processing

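The counts of 1744 higher and 1729 lower genes stayed within 1.5 times of these under DESeq2 (1708 and 1770), limma-voom (1643 and 1833), DESeq2 size factors in edgeR (1696 and 1774), no filter on low counts (2025 and 2470), at least 1 CPM (1279 and 1284), an adjusted p under 0.01 (1527 and 1557), the 12 tumors alone (1668 and 1596), the letter a tumors alone (1530 and 1658), the library series as a covariate (1692 and 1647) and the means of leukocyte and endothelial markers as covariates (1695 and 1845). They moved further with the fold change threshold, to 4722 and 4357 without one (4441 and 4266 in the shared library series) and to 677 and 678 at a log2 fold change of 2 (613 and 586). Leaving out each tumor in turn gave 1676 to 1787 higher and 1598 to 1750 lower genes, and 1531 to 1657 and 1467 to 1556 in the shared library series. The code that ends each title, used as a replicate block, gave 1581 and 1644 (1333 and 1318 in the shared library series). Deviations from the line means correlated at -0.106 and -0.248 for tumors that share code and letter, and at -0.231 and 0.223 for those that share the code alone. Pairs without a shared code spanned -0.246 to 0.306, so these few pairs cannot show whether the codes pair the tumors.

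Of the 330 genes that were called and either printed or chosen by the rule, 310 to 329 kept their call under each setting, the fewest with the letter a tumors alone. There Csf2, a myeloid growth factor at a log2 fold change of 2.42 with all tumors, came to -0.013 (edgeR adjusted p = 0.981), the 1 change of sign, and Cdkn1a (0.79), Vsir (0.96), Adamts4 (0.72), Ldha (0.84), Osm (-1.06), Ptprc (-1.04) and Il1b (-0.83) were no longer called, while Cd274 (1.04) and Trib1 (-1.48) were called. The call of Csf2 was also lost in the shared library series (1.46, edgeR adjusted p = 0.21), without W-2D (1.41) and under limma-voom (1.24). It was lost too with the library series as a covariate (1.46), with the title code as a block (1.68) and with the 12 tumors alone (2.43). Ptprb (0.88), Plvap (0.91), Abcc9 (0.93) and Cdh1 (-0.97) missed the call with the marker means as covariates. Of the 46 lists, 36 to 46 kept their median within 1 SD under each setting, and 2 to 9 medians changed sign, all with a size of at most 0.414. The cause of these changes was not tested. Depth limits the genes near the floor of 3 counts, where a line at 0 gives a bound and no fold.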
